A study of Chlorocebus aethiops with 24 samples.

Results

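Chaperones and heat shock proteins were followed in the hippocampus of 22 male vervet monkeys. The members were all rows of the deposited expression table whose array annotation gives 1 gene symbol that begins with HSPA, HSPB, HSPD, HSPE, HSPH, HSP90, DNAJ, BAG, CCT or FKBP followed by the number or letter of a chaperone gene. This rule found 61 of the 11512 rows, with 55 gene symbols, and it used no measured value. The rule reads symbols only, so it also took HSPBP1 and HSPBAP1, which bind heat shock proteins and are not small heat shock proteins. It took no row named HSPD or HSPE, and a further row carries several symbols of which 1 fits the pattern and was left out. A row is a probe set, a group of short probes on the Affymetrix GeneChip Rhesus Macaque Genome Array whose signals are summarized into 1 log2 intensity.

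FASD stands for fetal alcohol spectrum disorder and is the name the labels give to animals whose mothers drank ethanol in late pregnancy. Control animals came from mothers that were offered isocaloric sucrose instead. The 4 groups were 5 FASD and 6 Control animals killed at 2 years, and 5 FASD and 6 Control animals killed at 5 months. The mothers of all groups were females selected for voluntary drinking and the same female could serve in either condition in different breeding cycles, so that groups may share mothers. All animals were male, the tissue was the whole left hippocampus, and vervet RNA was hybridized to probes designed for the rhesus macaque. For Control animal 6 at 5 months the source name gives 2 years, against the title, description and age, which give 5 months, and the title was followed. The replicates are separate animals with 1 array each, so that p-values measure the spread between animals.

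Chaperones bind unfolded or partly folded proteins and keep them from aggregating. HSP70 proteins do this in cycles of ATP hydrolysis, in which J-domain proteins (DNAJ) deliver the client and start hydrolysis while BAG and HSP110 proteins exchange the nucleotide so that the client is let go. HSP90 finishes the folding of kinases and steroid receptors with FKBP co-chaperones, the ring-shaped chaperonin CCT folds actin and tubulin, and small heat shock proteins hold clients without ATP. In neurons HSPA8 and its partner DNAJC6 also strip clathrin from synaptic vesicles.

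The values of every pair of arrays correlated with an r between 0.972 and 0.995 across rows. Textbook markers of neurons, among them STMN2, SYT1 and NRGN, were measured in 6 rows, and the log2 of their summed intensity lay between 14.2 and 14.6 over all animals. No row with 1 symbol is named as a blood marker in the annotation used here, so blood markers were not followed. Rows without a symbol may still read them. The 3 arrays of lowest weight in limma all carry replicate number 2. They were FASD animal 2 at 5 months (0.273) and, at 2 years, Control animal 2 (0.379) and FASD animal 2 (0.413). In this order they held the highest of the 22 values in 9.6%, 9.03% and 8.1% of all rows. FASD animal 2 at 5 months also held the lowest of the 22 values in 19.7% of all rows and in 20 of the 61 chaperone rows (32.8%). In that animal the 5 markers of mural cells and fibroblasts deviated from their group means by 0.74 on average, the 9 of microglia by 0.29, the 5 of oligodendrocytes by 0.28, those of astrocytes by 0.14, the 5 of oligodendrocyte precursors by 0.08, those of endothelium by -0.04, the 6 of neurons by -0.06 and the 3 of ependyma and choroid plexus by -0.47. Their part in the chaperone values was not tested. In tissue of mixed cells, fewer cells of a type and less RNA per cell cannot be told apart.

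With age, most chaperone families had higher values at 2 years than at 5 months, by small amounts. The difference of 2 years minus 5 months, averaged over both exposures, was above 0 in 46 of the 61 rows (75.4%, against 51.5% of all rows), with a median of 0.06 on the log2 scale against 0.00 over all rows. An unadjusted p under 0.05 by limma was reached by 13 of the 61 rows (21.3%), against a background of 9.57% of all rows. Of these, 11 were higher at 2 years (18%, background 4.68%) and 2 were lower (3.28%, background 4.89%). No chaperone row reached an adjusted p under 0.05 after Benjamini-Hochberg adjustment over all rows, where the lowest was 0.0909, and 16 of all rows did (0.139%). Without FASD animal 2 at 5 months 7 rows had an unadjusted p under 0.05, 41 of the 61 rows were above 0 and their median was 0.04. Without Control animals 4 and 5 at 2 years 9 rows had such a p, 40 rows were above 0 and the median was again 0.04. Among markers of other cells, 2 of 5 oligodendrocyte rows, 2 of 5 precursor rows, 1 of 9 microglial rows and 1 of 6 neuronal rows had an unadjusted p under 0.05 and were lower at 2 years, while 1 oligodendrocyte and 1 endothelial row were higher. The log2 summed intensity of the oligodendrocyte markers was 12.8 to 13.3 in FASD and 13.0 to 13.4 in Control animals at 2 years, and 13.1 to 13.7 in FASD and 12.8 to 13.2 in Control animals at 5 months. The part of these cells in the age differences was not tested.

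By family, all 5 rows of HSP70, all 3 of HSP110, all 3 of DNAJA and all 8 of CCT had age differences above 0, as did the single HSP90 row. In the DNAJC family 13 of 16 rows were above 0, and in the BAG family 4 of 5. The median difference was 0.15 in HSP110, 0.12 in BAG, 0.09 in both HSP70 and DNAJA, and 0.06 in both CCT and DNAJC. The DNAJB rows were divided, with 4 of 7 above 0, and so were the FKBP rows, with 3 of 6, and the small heat shock proteins, with 2 of 4. The 3 rows of HSP-binding proteins, HSPBP1 and HSPBAP1, were all below 0. Centring of the arrays kept these counts, while quantile normalization left 3 of 5 BAG rows and 2 of 6 FKBP rows above 0. Without FASD animal 2 at 5 months 7 of 8 CCT rows, 11 of 16 DNAJC rows, 3 of 5 BAG rows and 2 of 6 FKBP rows were above 0. Without Control animals 4 and 5 at 2 years 4 of 5 HSP70 rows, 12 of 16 DNAJC rows, 3 of 5 BAG rows, 2 of 6 FKBP rows and 2 of 7 DNAJB rows were, and the DNAJB median was then -0.03. Rows of a family are not independent, since 6 gene symbols have more than 1 row and all rows come from the same animals.

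**Figure D1:**
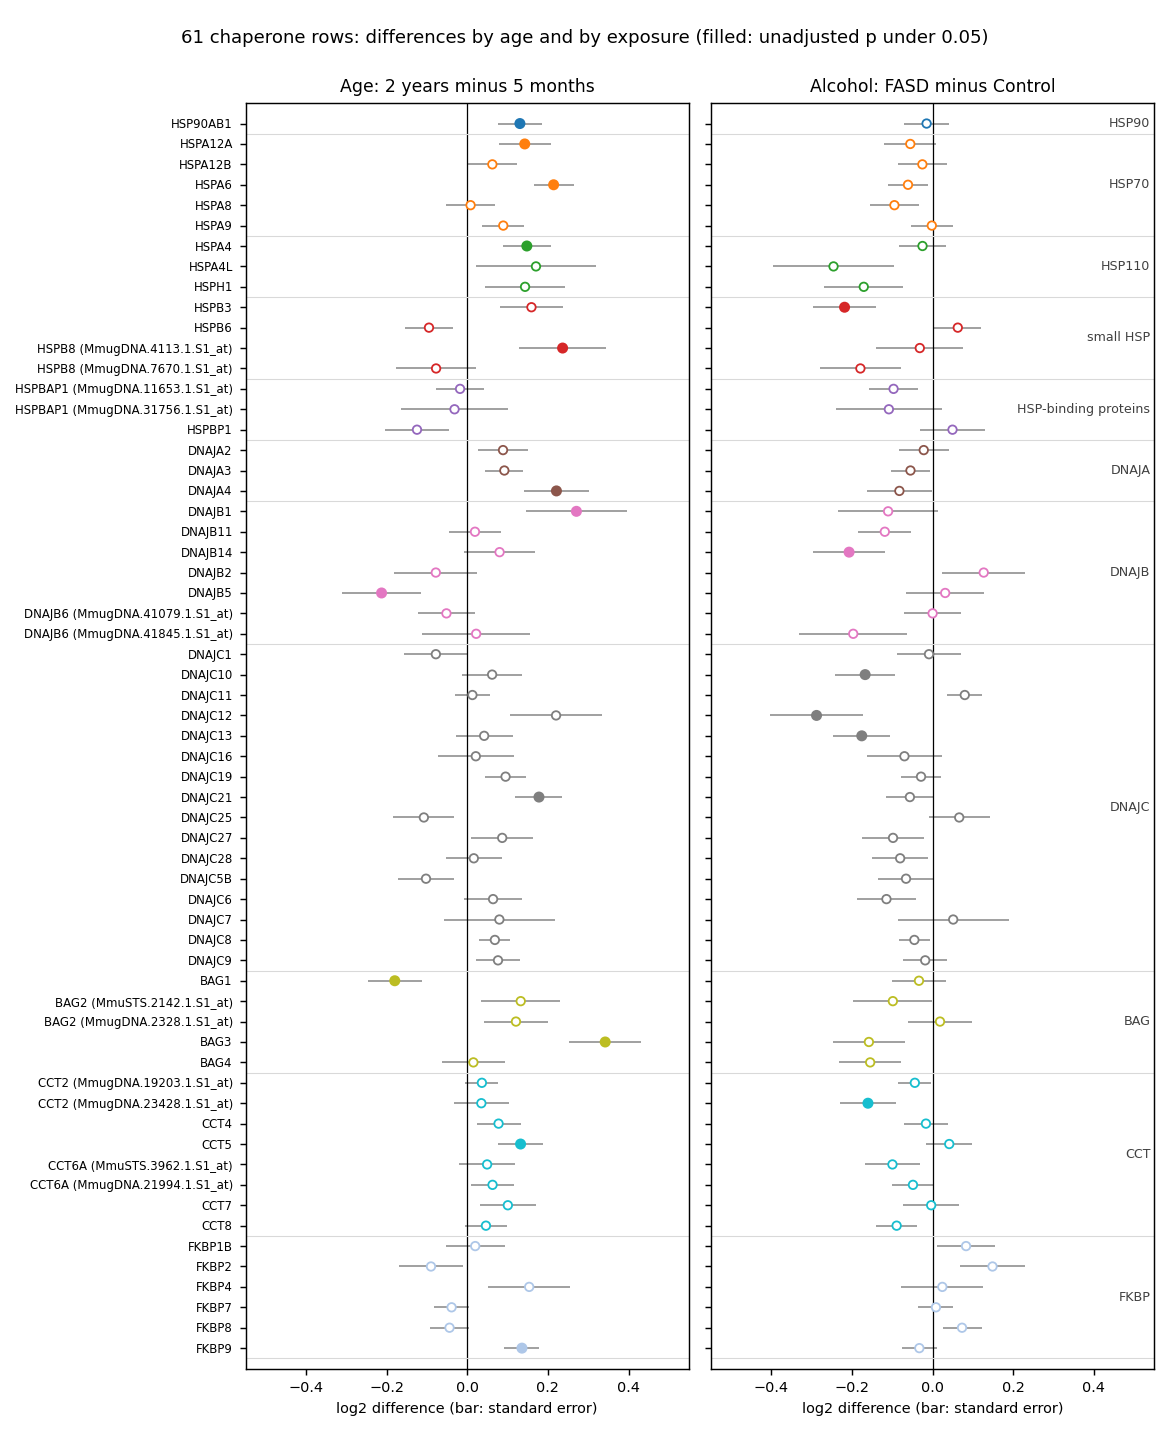
Log2 differences of the 61 chaperone rows by age (2 years minus 5 months, left) and by exposure (FASD minus Control, right), each with its standard error from limma, grouped by family. Filled points have an unadjusted p under 0.05: 13 rows for age, of which 11 lie right of 0, and 6 for alcohol, all left of 0.

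HSPA6, a stress-inducible HSP70 of primates, had the lowest p of the chaperone rows for age. It measured 6.98, 7.28, 6.99, 7.20 and 7.06 in FASD animals at 2 years and 7.05, 7.15 and 7.30 (lowest, median and highest) in Control animals at 2 years. At 5 months it measured 6.83, 6.90, 6.90, 6.84 and 6.91 in FASD animals and 6.82, 6.93 and 7.17 in Control animals. All 5 FASD animals at 2 years were above all 5 at 5 months, and 9 of the 11 animals at 5 months were below every animal at 2 years. The difference was 0.21 ± 0.05 (standard error), or 16% (limma, unadjusted p = 0.000269, adjusted p = 0.0909; exact permutation test within exposure, two-sided, p = 0.000146). It was 0.22 within FASD animals and 0.20 within Control animals.

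The other HSP70 rows were higher by less. HSPA12A, a distant relative of HSP70, differed by 0.14 (unadjusted p = 0.0365). HSPA9, the HSP70 of the mitochondrial matrix, differed by 0.09 and the endothelial HSPA12B by 0.06, both with an unadjusted p over 0.05. HSPA8, the constitutive HSP70, was close to equal at both ages, with a difference of 0.01. Its 11 values at 2 years lay between 12.07 and 12.59, with a median of 12.24, and its 11 values at 5 months lay between 12.06 and 12.54, with a median of 12.26. The ages therefore overlapped almost wholly for the constitutive member.

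The cytosolic HSP90AB1, the constitutive HSP90, measured 12.97, 13.05 and 13.19 (lowest, median and highest) at 2 years and 12.66, 13.01 and 13.11 at 5 months. The difference was 0.13 ± 0.05, or 9.48% (limma, unadjusted p = 0.0261, adjusted p = 0.428). The ages overlapped, and 5 of the 11 animals at 5 months fell below every animal at 2 years. Without FASD animal 2 at 5 months the difference was 0.10 and its unadjusted p was over 0.05. HSPA4, an HSP110 protein that resets HSP70, measured 9.90, 9.998 and 10.17 at 2 years and 9.50, 9.88 and 10.13 at 5 months. Here 7 of the 11 animals at 5 months were below every animal at 2 years, and the difference was 0.15 ± 0.06 (unadjusted p = 0.0203, adjusted p = 0.399). The lowest HSPA4 value was that of FASD animal 2 at 5 months, without which the difference was 0.10 (limma, unadjusted p = 0.0472). Without Control animals 4 and 5 at 2 years its unadjusted p was over 0.05. The other HSP110 rows, HSPH1 and HSPA4L, differed by 0.14 and 0.17 with wide errors, and their animals are described further on.

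Among the proteins that release HSP70 clients, BAG3 and BAG1 differed with age in opposite directions. BAG3 directs clients of HSP70 to autophagy. It measured 8.26, 8.71, 7.99, 8.45 and 8.27 in FASD animals at 2 years and 8.22, 8.50 and 9.10 (lowest, median and highest) in Control animals at 2 years, against 7.995, 8.16, 8.14, 7.96 and 8.06 in FASD animals and 7.90, 8.16 and 8.35 in Control animals at 5 months. At 2 years 4 of 5 FASD animals and 5 of 6 Control animals were above every animal of their exposure at 5 months. The difference was 0.34 ± 0.09, or 26.8% (limma, unadjusted p = 0.000871, adjusted p = 0.15; exact permutation test, two-sided, p = 0.000584), and it was 0.28 without Control animals 4 and 5 at 2 years (unadjusted p = 0.00179). BAG1, which links HSP70 to the proteasome, measured 8.14, 8.33 and 8.69 at 2 years and 8.32, 8.43 and 8.88 at 5 months. It was lower at 2 years by a difference of -0.18 ± 0.07 (unadjusted p = 0.0136, adjusted p = 0.362), with 5 of 6 Control animals and 4 of 5 FASD animals at 2 years below every animal of their exposure at 5 months. BAG2, an inhibitor of the chaperone-linked ubiquitin ligase CHIP, differed by 0.13 and 0.12 in its 2 rows and BAG4 by 0.02, each with an unadjusted p over 0.05.

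J-domain proteins of low p for age were DNAJA4, DNAJC21, DNAJB1 and DNAJB5. DNAJC21, a J-domain protein of ribosome maturation, measured 7.45, 7.59 and 7.74 at 2 years and 7.18, 7.40 and 7.69 at 5 months. Of the 11 animals at 5 months, 9 were below every animal at 2 years, and the difference was 0.18 ± 0.06, or 13.1% (unadjusted p = 0.00575, adjusted p = 0.266). DNAJA4, a cytosolic partner of HSP70, measured 9.53, 9.68 and 10.05 at 2 years and 8.97, 9.55 and 9.73 at 5 months, a difference of 0.22 ± 0.08 (unadjusted p = 0.0115, adjusted p = 0.343). The lowest of these values was that of FASD animal 2 at 5 months, without which the difference was 0.16. DNAJB5 was among the 2 rows lower at 2 years, with a difference of -0.21 (unadjusted p = 0.0392). Its lowest value was 7.93 in Control animal 6 at 2 years, and the next lowest was 8.48. Its unadjusted p was over 0.05 without FASD animal 2 at 5 months, and also without Control animals 4 and 5 at 2 years. The rest of the J-domain rows, 22 of 26, had age differences between -0.11 and 0.22 and an unadjusted p over 0.05.

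FKBP9, a prolyl isomerase of the endoplasmic reticulum, measured 8.97, 9.03, 9.09, 9.11 and 8.89 in FASD animals at 2 years and 8.87, 8.95 and 9.11 (lowest, median and highest) in Control animals at 2 years. At 5 months it measured 8.70, 8.86, 8.89, 8.89 and 8.67 in FASD animals and 8.85, 8.93 and 8.96 in Control animals. In FASD animals 4 of 5 at 2 years were above all 5 at 5 months, while the Control ages overlapped. The difference was 0.14 ± 0.04 over both exposures (limma, unadjusted p = 0.00494, adjusted p = 0.258), 0.21 in FASD animals and 0.06 in Control animals, and the difference between these (the interaction, 0.16) had an unadjusted p over 0.05. FKBP4, the co-chaperone of steroid receptors, differed by 0.15 with an error of 0.10. CCT5, a subunit of the chaperonin, differed by 0.13 (unadjusted p = 0.0293) and the other 7 CCT rows by 0.03 to 0.10.

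HSPB8, the small heat shock protein that works with BAG3, was measured in 2 rows that went apart with age. In the row MmugDNA.4113.1.S1_at it measured 7.82, 8.21 and 8.70 at 2 years and 7.58, 8.03 and 8.34 at 5 months, a difference of 0.24 ± 0.11 (unadjusted p = 0.0384, adjusted p = 0.48). In the row MmugDNA.7670.1.S1_at it measured 7.46, 7.93 and 8.42 at 2 years and 7.77, 7.97 and 8.49 at 5 months, a difference of -0.08 with an unadjusted p over 0.05. The annotation used here does not say which transcript each row reads. The authors kept a single probe set per gene by their own annotation, so the 2 rows may stand for different genes there. No direction can be given for HSPB8.

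Within each exposure fewer rows stood out, and these fits share animals with those above. In FASD animals 5 of the 61 rows had an unadjusted p under 0.05 for age (8.2%, background 6.99%), all higher at 2 years (background 4.71%) and none lower (background 2.28%). They were DNAJC12 (0.43), BAG3 (0.27), HSPA6 (0.22), FKBP9 (0.21) and DNAJA3 (0.17), a J-domain protein of mitochondria. In Control animals 8 rows did (13.1%, background 5.55%). Of these 7 were higher at 2 years (background 1.78%), namely DNAJB1 (0.44), BAG3 (0.41), BAG2 in the row MmugDNA.2328.1.S1_at (0.27), DNAJA4 (0.24), HSPA6 (0.20), DNAJC21 (0.20) and CCT5 (0.16), and 1 was lower (background 3.77%), DNAJB5 (-0.33). Only BAG3 and HSPA6 were in both lists, which does not show that the others differ between exposures. With all animals and the deposited values, no member of either list had an unadjusted p under 0.05 for the interaction.

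**Figure D2:**
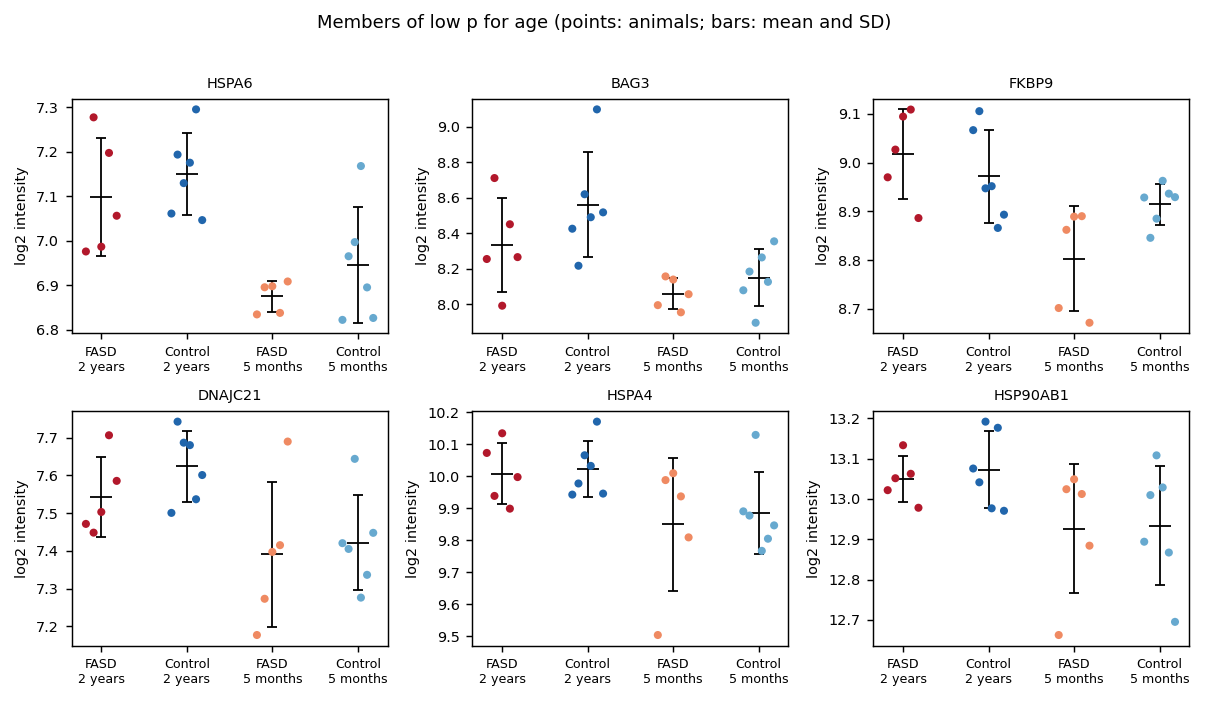
Log2 intensity of 6 chaperone rows of low unadjusted p for age in each animal, with the mean and SD of each group, FASD and Control at 2 years and at 5 months. In HSPA6 all 5 FASD animals at 2 years lie above all 5 at 5 months, and in HSPA4 and HSP90AB1 the lowest point is an animal of 5 months.

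DNAJB1, HSPH1 and HSPA4L varied widely between animals, with their highest values in the same 2 Control animals at 2 years. DNAJB1 is the J-domain partner of inducible HSP70 and a classic target of the heat shock response. It measured 10.01, 10.41, 9.86, 9.87 and 9.95 in FASD animals at 2 years, and 10.07, 9.88, 10.22, 10.64, 11.25 and 9.77 in Control animals 1 to 6 at 2 years. At 5 months the FASD animals measured 9.92, 10.02, 9.94, 9.85 and 9.88, and the Control animals 9.73, 9.88 and 9.97 (lowest, median and highest). Control animals 5 and 4 at 2 years held the highest and second highest of the 22 values. The SD was 0.23 in FASD animals and 0.56 in Control animals at 2 years, against 0.07 in FASD animals and 0.09 in Control animals at 5 months.

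The age difference of DNAJB1 was 0.27 ± 0.12, or 20.6% (limma, unadjusted p = 0.0409, adjusted p = 0.485; exact permutation test, two-sided, p = 0.0308). Without Control animals 4 and 5 at 2 years it was 0.11 (unadjusted p = 0.128). Its alcohol difference was -0.11 with all animals and 0.05 without these 2, in both cases with an unadjusted p over 0.05.

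HSPH1, the inducible HSP110, measured 11.56, 11.37, 11.82, 11.54 and 11.69 in FASD animals at 2 years and 11.60, 11.53, 11.68, 12.08, 12.34 and 11.79 in Control animals 1 to 6 at 2 years. At 5 months it measured 11.05, 11.52, 11.69, 11.61 and 11.73 in FASD animals and 11.37, 11.64 and 11.90 in Control animals. The same 2 Control animals, 5 and 4, were again the highest. HSPH1 differed by 0.14 for age and -0.17 for alcohol, and by 0.05 and -0.08 without them, each with an unadjusted p over 0.05. The lowest HSPH1 value of all animals was that of FASD animal 2 at 5 months. Without that animal the differences were 0.08 and -0.11, both with an unadjusted p over 0.05. HSPA4L, a close relative of HSPH1, measured 7.10 and 7.55 in Control animals 4 and 5 at 2 years and at most 6.67 in the others. Its age difference of 0.17 was 0.01 without these Control animals and 0.11 without FASD animal 2 at 5 months. HSPA4L and the row MmugDNA.41845.1.S1_at of DNAJB6, a J-domain protein that keeps polyglutamine proteins soluble, were picked for description after their values were seen. This DNAJB6 row was highest in the same animals, at 10.84 in animal 4 and 10.74 in animal 5.

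Over the 61 rows, Control animal 5 at 2 years held the highest of the 22 values in 11 rows (18%), against 3.6% of all rows, and Control animal 4 at 2 years in 6 rows (9.84%), against 6.12% of all rows. In BAG3 animal 5 measured 9.10, and the next highest value was 8.71 in FASD animal 2 at 2 years. HSPA8, by contrast, was highest in Control animal 6 at 2 years, at 12.59, with 12.41 in animal 4 and 12.38 in animal 5. The array of Control animal 5 had a weight of 1.33 in limma, among 22 weights between 0.273 and 2.54, and its neuronal markers deviated from the group mean by 0.03. Its markers of oligodendrocyte precursors deviated by -0.39, of mural cells and fibroblasts by -0.26, of oligodendrocytes by -0.25, of ependyma and choroid plexus by -0.16, of endothelium by -0.14, of astrocytes by -0.10 and of microglia by -0.05, and their part in the high values was not tested.

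**Figure D3:**
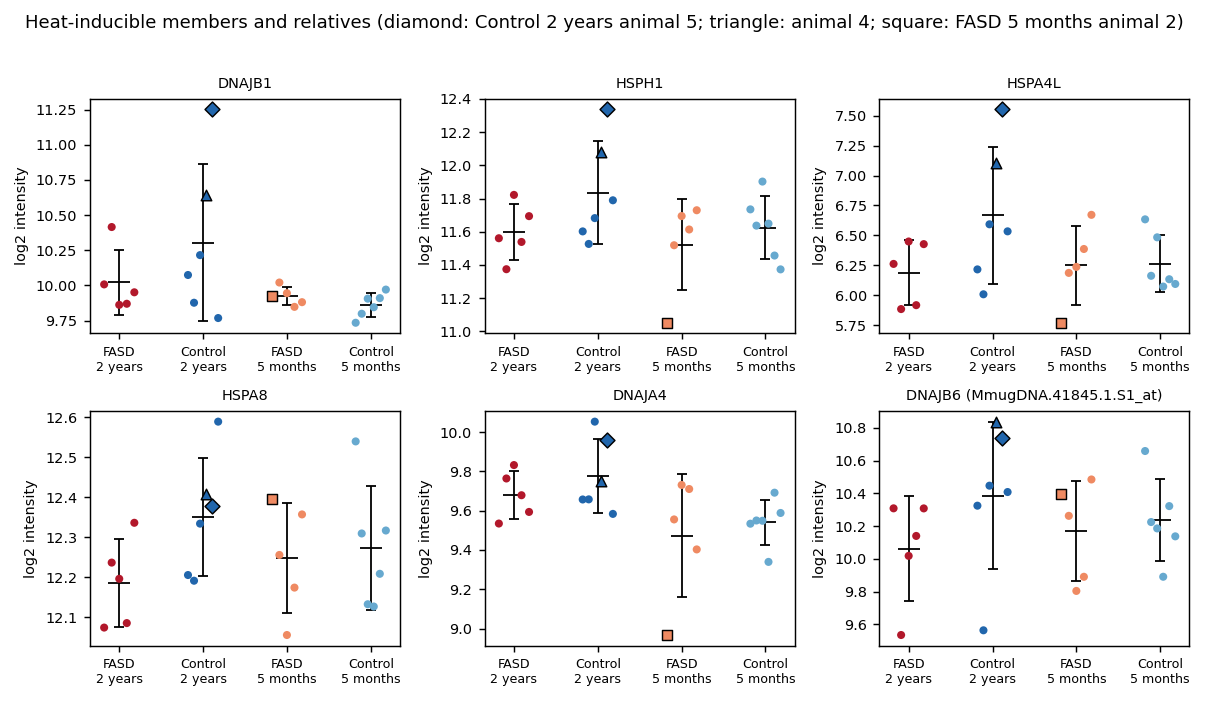
Log2 intensity of 6 chaperone rows in each animal, with the mean and SD of each group. The diamond (Control animal 5 at 2 years) and the triangle (animal 4) are the highest points in DNAJB1, HSPH1, HSPA4L and DNAJB6 but not in HSPA8 or DNAJA4, and the square marks FASD animal 2 at 5 months.

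How the members varied together was measured on each animal's deviation from its group mean, over 22 animals, with p from 100000 permutations within groups and adjustment over 11511 rows. For DNAJB1, the chaperone row of highest correlation was BAG3 (Pearson's r = 0.72, permutation p = 0.00534; Spearman's rho = 0.53, permutation p = 0.025). The r was 0.61 without the 2 animals farthest from the median of DNAJB1, Control animals 5 and 6 at 2 years. Next were DNAJB11 (0.64), a J-domain protein of the endoplasmic reticulum, CCT4 (0.62), BAG2 in the row MmuSTS.2142.1.S1_at (0.61) and HSPA4L (0.56), and these 5 rows were the chaperones with an r over 0.5, which 0.808% of all rows had. None of the 11511 rows had an adjusted p under 0.05. Without the same 2 animals r fell to 0.45 for DNAJB11, 0.33 for both CCT4 and BAG2 and 0.28 for HSPA4L.

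HSPH1 varied with more of the chaperones. HSPA4L had the highest r (0.90, permutation p = 1e-05, the smallest the permutations can give; adjusted p = 0.0048; Spearman's rho = 0.89, permutation p = 2e-05), and r was 0.86 without the 2 farthest animals. DNAJC6 followed with an r of 0.81 (adjusted p = 0.0152), CCT8 with 0.78 (0.0162), HSPA4 with 0.72 (0.0264) and BAG4 with 0.72 (0.0171). FASD animal 2 at 5 months held the lowest value of all animals in HSPH1, HSPA4L, DNAJC6, CCT8 and HSPA4, though not in BAG4. In all, 14 chaperone rows had an r over 0.5, but 11.1% of all rows did too, and 779 of the 11511 rows had an adjusted p under 0.05. An r below -0.5 was found in 4 chaperone rows, DNAJC25 (-0.59), HSPBP1, HSPB6 and FKBP8 (-0.57 each), none with an adjusted p under 0.05, against 8.89% of all rows. BAG3 and DNAJB1 were not among the 14, and DNAJB1 had an r of 0.44 with HSPH1.

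For alcohol the chaperone rows were on balance lower in FASD animals, again by small amounts. The FASD minus Control difference, averaged over both ages, was below 0 in 47 of the 61 rows (77%, against 53.2% of all rows), and its median was -0.05 on the log2 scale against -0.01 over all rows. An unadjusted p under 0.05 was reached by 6 of the 61 rows (9.84%), against a background of 8.44% of all rows. All 6 were lower in FASD animals (background 6.01%) and none was higher (background 2.43%). No row at all had an adjusted p under 0.05, where the lowest was 0.579. Without FASD animal 2 at 5 months 4 rows had an unadjusted p under 0.05, 41 of the 61 rows were below 0 and their median was -0.03. Without Control animals 4 and 5 at 2 years it was likewise 4 rows and 41 rows, with a median of -0.05. After centring or quantile normalization 5 rows were lower and 1 was higher, 43 and 41 of the 61 rows were below 0, and the share of lower rows among all rows under an unadjusted p of 0.05 was 48.5% and 48.3%, against 71.2% as deposited. Among markers of other cells, 2 of 5 oligodendrocyte rows and 1 row each of oligodendrocyte precursors, microglia, endothelium and mural cells had an unadjusted p under 0.05 and were higher in FASD animals, and 1 of 6 neuronal rows was lower. The part of these cells in the alcohol differences was not tested.

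By family, the alcohol differences were below 0 in all 5 HSP70 rows, all 3 HSP110 rows, all 3 DNAJA rows, 7 of 8 CCT rows, 13 of 16 DNAJC rows, 5 of 7 DNAJB rows, 4 of 5 BAG rows and 3 of 4 small heat shock rows. FKBP rows went the other way, with 5 of 6 above 0 and a median of 0.05. After centring and after quantile normalization 4 of 5 HSP70 rows, 12 of 16 DNAJC rows and 4 of 7 DNAJB rows were below 0, with 6 of 8 CCT rows after centring and 5 of 8 CCT rows and 2 of 3 HSP110 rows after quantile normalization. Without FASD animal 2 at 5 months 4 of 5 HSP70 rows, 2 of 3 HSP110 rows, 2 of 3 DNAJA rows, 5 of 8 CCT rows, 12 of 16 DNAJC rows and 4 of 7 DNAJB rows were below 0. The single HSP90 row was at -0.02 with all animals and at 0.02 without that one. Without Control animals 4 and 5 at 2 years 4 of 5 HSP70 rows and 2 of 3 DNAJA rows were below 0. So were 5 of 8 CCT rows, 12 of 16 DNAJC rows, 4 of 7 DNAJB rows and 3 of 5 BAG rows. Of the FKBP rows 4 of 6 were then above 0. None of the FKBP rows had an unadjusted p under 0.05 for alcohol over both ages.

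HSPB3, a small heat shock protein best known from muscle, had the lowest p for alcohol. It measured 5.58, 6.08, 5.92, 5.64 and 6.11 in FASD animals and 5.84, 6.07 and 6.24 (lowest, median and highest) in Control animals at 2 years. At 5 months it measured 5.65, 5.71, 5.73, 5.45 and 5.85 in FASD animals and 5.69, 5.93 and 6.20 in Control animals. The exposures overlapped at both ages, and 4 of the 10 FASD animals were below all 12 Control animals. The difference was -0.22 ± 0.08, or -14.1% (limma, unadjusted p = 0.0106, adjusted p = 0.579; exact permutation test within age, two-sided, p = 0.0137). It was -0.19 at 2 years and -0.25 at 5 months.

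DNAJC12, a co-chaperone of the enzymes that hydroxylate phenylalanine, tyrosine and tryptophan, differed mainly at 5 months. There it measured 6.18, 6.38, 7.04, 6.37 and 6.55 in FASD animals, against 6.60, 6.97 and 7.31 in Control animals. At 2 years it measured 7.05, 7.01, 6.57, 7.14 and 6.93 in FASD animals and 6.72, 6.87 and 7.47 in Control animals. At 5 months 4 of 5 FASD animals lay below every Control animal, while at 2 years the exposures overlapped. The difference at 5 months was -0.50 ± 0.16, or -29.4% (limma, unadjusted p = 0.00507, adjusted p = 0.93; two-sided p = 0.026 by exact permutation). The 2-year difference was -0.07. The difference between these, 0.43, had an unadjusted p over 0.05. Without Control animals 4 and 5 at 2 years this interaction was 0.51 (limma, unadjusted p = 0.0389, adjusted p = 0.999). Over both ages the difference was -0.29 ± 0.11 (unadjusted p = 0.0193).

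DNAJC13, a J-domain protein of endosomes, measured 7.55, 8.12 and 8.28 (lowest, median and highest) in FASD animals and 8.09, 8.20 and 8.33 in Control animals over both ages. Of the 10 FASD animals 4 were below all 12 Control animals, and the difference was -0.18 ± 0.07 (unadjusted p = 0.0211; exact permutation test, two-sided, p = 0.0102). DNAJB14 sits in the membrane of the endoplasmic reticulum. It measured 7.50, 7.99 and 8.19 in FASD animals, against 7.91, 8.15 and 8.51 in Control animals, a difference of -0.21 ± 0.09 (unadjusted p = 0.0289), with 4 FASD animals below all Control animals. DNAJC10, which reduces disulfide bonds of misfolded proteins in the reticulum, measured 10.70, 10.94 and 11.09 in FASD animals, against 10.68, 11.10 and 11.41 in Control animals. Its difference was -0.17 ± 0.07 (unadjusted p = 0.0342), and no FASD animal was below all Control animals.

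CCT2, a subunit of the chaperonin, was measured in 2 rows. The row MmugDNA.23428.1.S1_at measured 10.36, 10.74 and 10.97 in FASD animals and 10.73, 10.90 and 11.08 in Control animals, a difference of -0.16 ± 0.07 (unadjusted p = 0.0289), with 4 of the 10 FASD animals below all 12 Control animals. The row MmugDNA.19203.1.S1_at differed by -0.04. Without FASD animal 2 at 5 months the first row differed by -0.12 and its unadjusted p was over 0.05. Within single ages, 4 rows had an unadjusted p under 0.05 at 5 months (background 4.83%). DNAJC12, HSPB3 and CCT6A were lower (background 3.36%), and FKBP2, a prolyl isomerase of the endoplasmic reticulum, was higher by 0.27 (background 1.47%). FKBP2 measured 11.03 in FASD animal 2 at 5 months and 10.19 to 10.58 in the other 4 FASD animals, and without animal 2 its difference was 0.14 (unadjusted p = 0.147). Without that animal HSPB3 and CCT6A also had an unadjusted p over 0.05, and DNAJC12 had a difference of -0.42 (unadjusted p = 0.0207). At 2 years 2 rows had such a p (background 6.05%), both lower (3.35%, against 2.69% of all rows that were higher). DNAJB11 differed by -0.21 and HSPA4L by -0.48, and no row had such a p without Control animals 4 and 5.

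**Figure D4:**
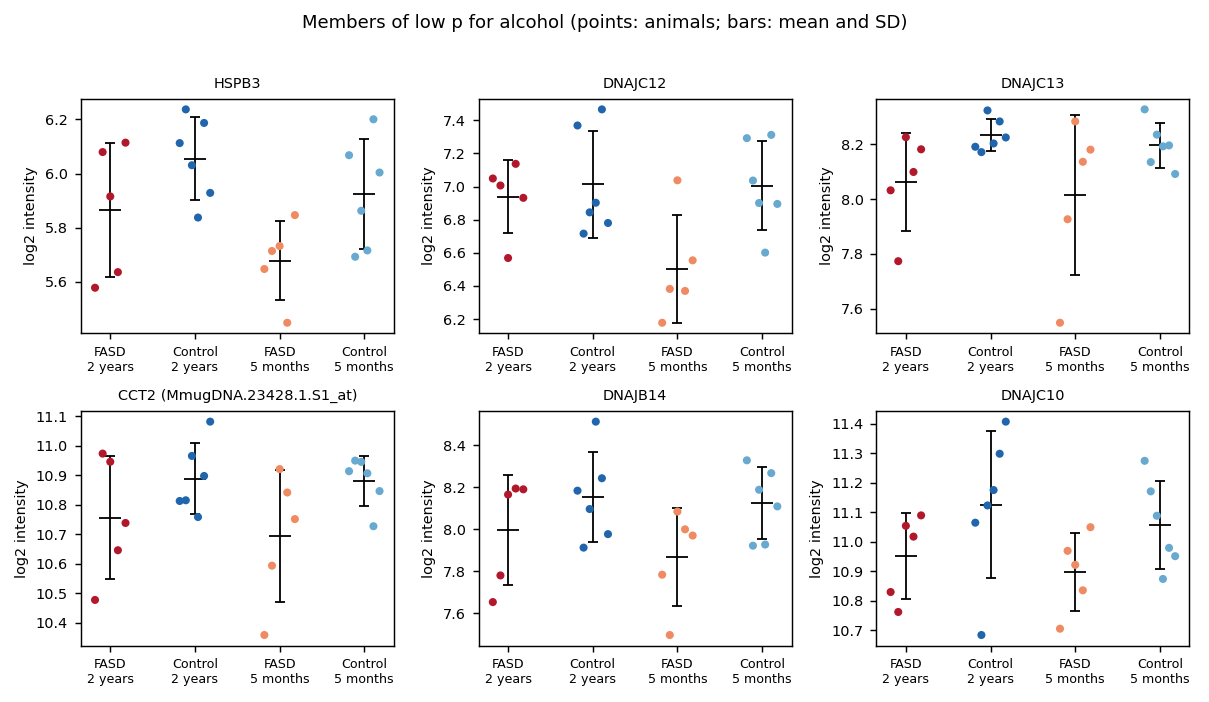
Log2 intensity of the 6 chaperone rows with an unadjusted p under 0.05 for alcohol in each animal, with the mean and SD of each group. At 5 months 4 of 5 FASD animals lie below every Control animal in DNAJC12, and the exposures overlap at both ages in HSPB3.

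For the interaction of age and alcohol, 2 of the 61 rows had an unadjusted p under 0.05 (3.28%), against 3% of all rows, both above 0 (background 2.11%), and no row had an adjusted p under 0.05. Which row had such a p turned on the scaling and on the animals kept. After centring it was BAG2 in the row MmugDNA.2328.1.S1_at alone, at -0.34, while DNAJC7 was at 0.57 and the row MmuSTS.3962.1.S1_at of CCT6A at 0.24. Of all rows with such a p, 128 were then above 0 and 207 below, against 243 and 102 as deposited. DNAJC7, a J-domain protein that binds both HSP70 and HSP90, measured 9.98, 8.98, 9.48, 8.87 and 9.83 in FASD animals and 8.87, 9.04 and 9.30 (lowest, median and highest) in Control animals at 2 years. At 5 months it measured 8.78, 9.04, 8.76, 8.97 and 9.68 in FASD animals and 8.95, 9.24 and 9.72 in Control animals. FASD animals 1, 3 and 6 at 2 years were above every Control animal of that age, while at 5 months the exposures overlapped. The FASD minus Control difference was 0.36 at 2 years and -0.26 at 5 months. The interaction was 0.61 ± 0.27 (unadjusted p = 0.0362), and it lost that level in 11 of the 22 fits that each left out 1 animal.

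CCT6A in the row MmuSTS.3962.1.S1_at had a FASD minus Control difference of 0.04 at 2 years and -0.24 at 5 months. At 2 years it measured 8.56, 8.59, 8.54, 8.87 and 8.73 in FASD animals and 8.47, 8.63 and 8.73 in Control animals, and at 5 months 8.17, 8.51, 8.53, 8.55 and 8.57 in FASD animals and 8.27, 8.82 and 8.86 in Control animals. At 5 months 5 of 6 Control animals lay above every FASD animal, and Control animal 5 lay below 4 of them. The interaction was 0.29 ± 0.14 (unadjusted p = 0.05, just under the threshold before rounding) and lost that level in 14 of the 22 fits without 1 animal. The other row of CCT6A, MmugDNA.21994.1.S1_at, gave 0.13.

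Several textbook members had an unadjusted p over 0.05 for both age and alcohol. DNAJC6, the auxilin that recruits HSPA8 to clathrin coats, measured 11.82, 12.13 and 12.38 at 2 years and 11.62, 12.10 and 12.29 at 5 months, with an age difference of 0.06 and an alcohol difference of -0.11. HSPA9 averaged less than 0.01 apart between FASD and Control animals, with an error of 0.05. HSPA8 had an alcohol difference of -0.09, and 3 of its 10 FASD values were below all 12 Control values. FKBP4 had one of 0.02. Other textbook chaperones, among them HSPA1A, HSPA5, HSP90AA1, HSPD1 and FKBP5, were not analysed here.

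The spread between animals of a group differed widely within the set. Its median over the chaperone rows was an SD of 0.17, against 0.16 over all rows. It was lowest in DNAJC8 (0.07), a splicing-linked J-domain protein, and in CCT2 in the row MmugDNA.19203.1.S1_at (0.08), DNAJC11 (0.08), FKBP7 and FKBP9 (0.09 each), while the other CCT2 row had 0.16. It was highest in HSPA4L (0.38), DNAJC7 (0.35), DNAJB6 in the row MmugDNA.41845.1.S1_at (0.34), HSPBAP1 in the row MmugDNA.31756.1.S1_at (0.34) and DNAJB1 (0.32), each above the spread of at least 93.6% of all rows.

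**Figure D5:**
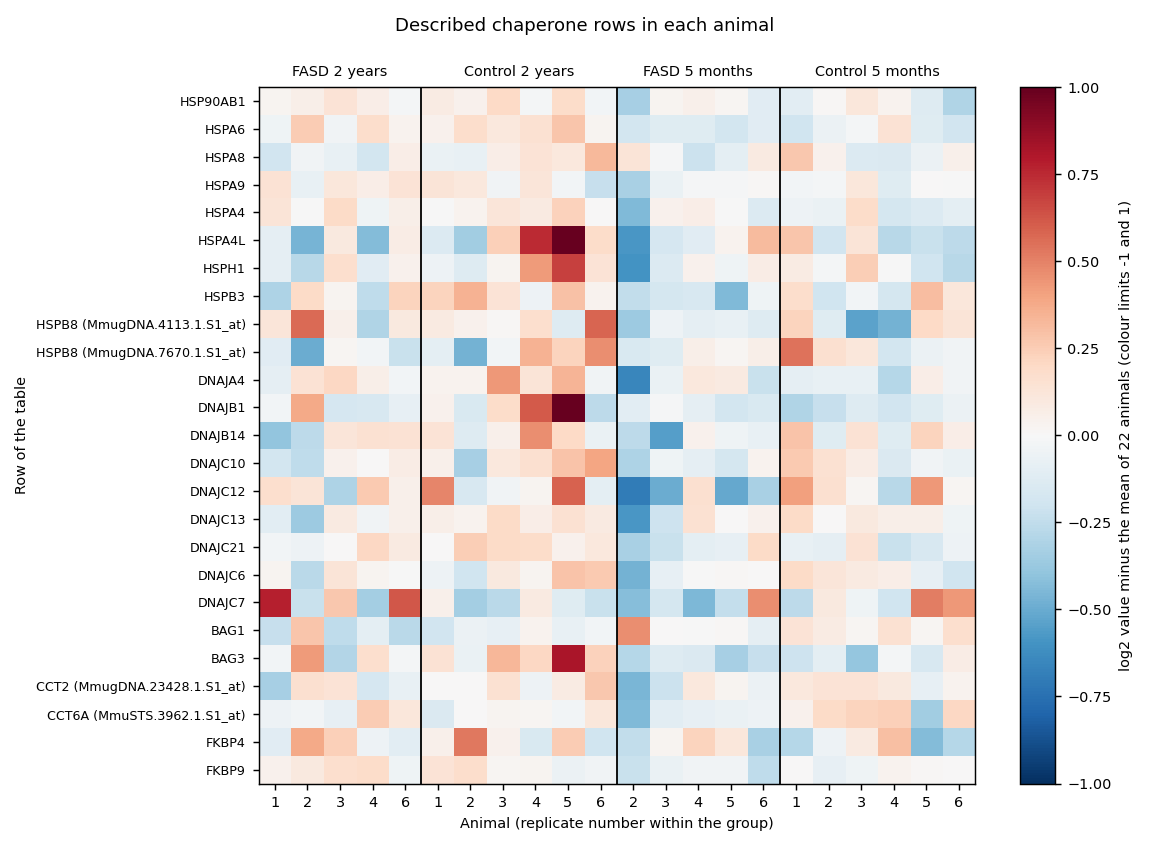
Log2 value minus the mean of the 22 animals for the described chaperone rows, by animal and group, with the colour scale limited to -1 and 1. FASD animal 2 at 5 months is low in many rows and Control animal 5 at 2 years is high in HSPA4L, HSPH1, DNAJB1 and BAG3.

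Partners of these families outside the set were counted from textbook lists of the pathway, beside which 9.57% of all rows had an unadjusted p under 0.05 for age and 8.44% for alcohol. Of 11 rows of cytosolic co-chaperones, AHSA1, which stimulates the ATPase of HSP90, was higher at 2 years by 0.17 (unadjusted p = 0.0155). CDC37, which brings kinases to HSP90, differed with age by -0.21 in 1 of its 2 rows (unadjusted p = 0.0367) and by 0.11 in the other. PTGES3, an HSP90 co-chaperone of steroid receptors, was higher in FASD animals by 0.21 (unadjusted p = 0.0247). Of 5 rows of heat shock transcription factors and their regulators, HSF1, the main activator of heat shock genes, differed with age by -0.11 (unadjusted p = 0.0428) and IER5, which activates HSF1, by -0.17 (unadjusted p = 0.0134), both lower at 2 years.

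CRYAB, a small heat shock protein of glia that the rule does not cover, was higher in FASD animals by 0.26 ± 0.10 (unadjusted p = 0.0127). This was the opposite direction to HSPB3. CRYAB was higher by 0.37 at 5 months (unadjusted p under 0.05) and by 0.15 at 2 years (over 0.05). At 5 months and 2 years the median alcohol difference was 0.42 and 0.03 in oligodendrocyte markers. In astrocyte markers it was -0.11 and -0.08. The part of these cells in the CRYAB difference was not tested. Of 17 rows for folding and quality control in the endoplasmic reticulum, SIL1, the nucleotide exchange factor of the HSP70 of the reticulum, was higher in FASD animals by 0.15 and EDEM1, which sorts misfolded glycoproteins, was higher at 2 years by 0.14 (unadjusted p = 0.0332 and 0.00937). Of 7 mitochondrial rows GRPEL2, the exchange factor of HSPA9, was lower in FASD animals by a difference of -0.12, and of 7 cyclophilins PPWD1 by -0.16 (unadjusted p = 0.0385 and 0.049). Of 9 chaperonin and prefoldin partners none had an unadjusted p under 0.05 for age or alcohol, and of 8 rows of sensors and transcription factors of reticulum stress none did either. None of these partners had an adjusted p under 0.05.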

How the data were processed

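Hippocampal RNA was hybridized to 24 arrays, 1 per animal, of which 2 that the authors discarded hold no values (2 columns not used). The deposited values are log2 intensities from the authors' RMA, whose version the sources used here do not give, and array medians over the kept rows lay between 7.93 and 8.06. One discarded FASD array at 5 months carries replicate number 2 in its title, as the kept animal 2 does, and number 4 in its source name. The paper gives the excluded array of this group the number 1, which no kept FASD animal at 5 months carries. The kept animal 2 is the array that has values. The authors then kept annotated and detected probe sets and, for genes with several, only the probe set of highest mean. No further filter was applied to the 11512 rows. The authors' annotation drew on a private source as well, so rows that share a symbol here may stand for different genes there. The platform annotation names 8730 rows by 1 symbol, 88 by several and 2694 by none. Levels were compared only within a probe set, and the number of arrays limits the precision.

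A linear model with 1 mean per group was fitted with limma (version 3.58.1, R 4.3.3), with empirical Bayes moderation and Benjamini-Hochberg adjustment over all rows, and was tested on simulated data. Single values were also permuted exactly within age or exposure (numpy 2.4.6, Python 3.11.15), and figures were drawn with matplotlib 3.10.9. Alternatives were the methods' analysis of variance, robust variances with an intensity trend, other rules for rows of 1 gene, rows of high mean only, centring, quantile normalization, array weights, a replicate block and the loss of each animal. The loss of Control animals 4 and 5 at 2 years or of the 3 arrays of lowest weight, and the correlations, were added after the data were seen.

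Members and lists were chosen with earlier results of these data known. Rows were described by animal where they had the lowest unadjusted p under 0.05 (up to 8 for alcohol, 8 for age and 5 for the interaction), were textbook chaperones, or belonged to a gene whose rows differed in sign. Other members named fall outside this rule and were chosen after their values were seen.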

Additional observations from a re-analysis of the deposited data

Results flagged for a closer look

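Single animals stood apart from the rest of their group in 8 of 96 groups of named rows, where the gap to the nearest other animal took most of the group's range. Chance marks about 1 in 20 such groups, or 4.8 of 96. FASD animal 2 at 5 months, whose array had the lowest weight, accounts for 5 of them. In that animal BAG1 was high at 8.8754, while CCT6A (MmuSTS.3962.1.S1_at) was low at 8.1738, DNAJC6 at 11.6230, HSPA9 at 10.2735 and HSPB8 (MmugDNA.4113.1.S1_at) at 7.7560. Control animal 5 at 5 months was low in the same row of CCT6A, at 8.2715. FASD animal 2 at 2 years was high in DNAJB1 at 10.4149, and Control animal 3 at 5 months was high in HSPA4 at 10.1295.

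The alcohol difference at 2 years minus that at 5 months had an unadjusted p under 0.05 in 2 rows. It was 0.28597 in CCT6A (MmuSTS.3962.1.S1_at) and 0.61212 in DNAJC7, and neither had an adjusted p under 0.05 by limma.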

How the results depend on the processing

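All counts here are chaperone rows with an unadjusted p under 0.05 unless all rows are named. For alcohol the count was 6, against 11 with array weights, 10 without the 3 arrays of lowest weight and 4 (without Control animal 1 at 5 months) to 12 (without Control animal 2 at 2 years) when 1 animal was left out. For age it was 13, and 7 (without FASD animal 2 at 5 months) to 15 (without Control animal 2 at 2 years) when 1 animal was left out. For the interaction it was 2, against 1 by analysis of variance, 1 with an intensity trend, 1 with the row of highest mean per gene, 1 after quantile normalization (DNAJC7) and 1 after centring (BAG2, below 0, in place of DNAJC7 and CCT6A), and 0 to 4 when 1 animal was left out. For alcohol at 5 months it was 4, against 1 without the 3 arrays, and 1 (without FASD animal 2 at 5 months) to 9 (without FASD animal 4 at 5 months). For alcohol at 2 years it was 2, against 7 with array weights, 0 without Control animals 4 and 5, 11 without the 3 arrays, and 0 (without Control animal 4 at 2 years) to 11 (without Control animal 2 at 2 years). For age in Control animals it was 8, against 5 without Control animals 4 and 5, 14 without the 3 arrays, and 5 (without Control animal 3 at 2 years) to 11 (without FASD animal 2 at 5 months). For age in FASD animals it was 5, against 12 with array weights and 3 (without FASD animal 2 at 5 months) to 11 (without FASD animal 6 at 5 months). The number of all rows with an adjusted p under 0.05 for age was 16, against 10 by analysis of variance, 71 with array weights, 29 without the 3 arrays, and 11 to 44 when 1 animal was left out. The cause of these shifts was not tested.

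Replicate numbers are shared by the groups. Over 30 pairs of animals with the same number the correlation of their deviations lay between -0.330 and 0.389 and exceeded 0.1 in 13. The correlation was highest for number 2, at 0.389 between FASD animals of both ages and 0.383 between FASD and Control animals at 2 years. Number 2 is also the number of the 3 arrays of lowest weight. The mean with animals of other numbers was -0.171 and -0.111 in these comparisons. For the lowest, number 4 between Control animals at 2 years and FASD animals at 5 months, that mean was 0.041. These values do not settle whether the numbers pair animals, and they were not taken to do so. With the replicate number as a block, 31 rows had an adjusted p under 0.05 for age, and 8 chaperone rows an unadjusted p under 0.05 for age in FASD animals.

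For the described rows, 24 age and 24 alcohol differences and the 7 interaction differences larger than their standard error were recomputed. Of these values, 1746 kept their direction and their side of an adjusted p of 0.05, 40 turned their sign, in 4 age and 7 alcohol differences, and 4 passed an adjusted p of 0.05, all for age. HSPA6 had an adjusted p of 0.0365 with array weights, 0.0474 with the block and 0.0433 without Control animal 4 at 5 months, and BAG3 one of 0.0397 with array weights. Before adjustment, leaving out 1 animal took the p over 0.05 in 8 of 22 fits for DNAJC10, in 5 for DNAJB14 and in 5 for CCT2 (MmugDNA.23428.1.S1_at), all for alcohol, and for age in 7 for HSPB8 (MmugDNA.4113.1.S1_at) and in 11 for DNAJB1.

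The lowest unadjusted p among values that turned their sign was 0.241. For alcohol, DNAJB1 was at 0.0502 without Control animals 4 and 5 at 2 years. HSPA9 was at 0.011 after centring, 0.023 after quantile normalization, 0.023 with array weights, 0.0044 with the block, 0.0071 without Control animals 4 and 5, 0.057 without the 3 arrays and -0.027 to 0.028 when 1 animal was left out. HSPA4 was at 0.0019 after quantile normalization, 0.00063 with array weights, 0.022 without the 3 arrays and -0.045 to 0.018 without 1 animal. HSP90AB1 was at 0.015 without the 3 arrays and -0.039 to 0.018 without 1 animal. Without 1 animal FKBP4 lay between -0.015 and 0.068, HSPB8 (MmugDNA.4113.1.S1_at) between -0.0898 and 0.019 and DNAJC7 between -0.028 and 0.121. For age, CCT2 (MmugDNA.23428.1.S1_at) was at -0.028 with array weights, -0.027 without the 3 arrays and -0.0069 to 0.0698 without 1 animal. HSPA8 was at -0.0022 without Control animals 4 and 5 and -0.016 to 0.035 without 1 animal, HSPB8 (MmugDNA.7670.1.S1_at) at 0.0024 without the 3 arrays, and DNAJC13 at -0.016 to 0.078 without 1 animal.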

Other observations

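Some genes known to respond to glucocorticoids or to neuronal activity were lower at 2 years than at 5 months. Of 7 glucocorticoid-responsive rows, 4 reached an unadjusted p under 0.05 in limma, all lower at 2 years, with a list median of -0.18 against 0.00 over all rows, of which 4.89% were lower with such a p. DUSP1, a phosphatase of MAP kinases, differed by -0.55 ± 0.16, ZBTB16 by -0.24, the clock gene PER1 by -0.22 and TSC22D3 by -0.18. Of 8 immediate early genes 3 had such a p, all lower at 2 years, with a list median of -0.17. FOS differed by -0.58, ARC, a synaptic protein induced by activity, by -0.41 and IER2 by -0.33. Within FASD animals 0 of the 7 glucocorticoid-responsive rows had such a p, where 2.28% of all rows were lower with such a p. Within Control animals 3 did, all lower, where 3.77% of all rows were. Of the 8 immediate early genes 1 had such a p within FASD animals and 2 within Control animals, all lower at 2 years. No row of either list had an unadjusted p under 0.05 for the interaction, so these counts do not show a difference between exposures. None had an adjusted p under 0.05.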
